A study of Mus musculus with 474 samples.

Results

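The transcripts of 10 protein kinases that act in mitosis were followed through single daughters of mouse haematopoietic stem cells (HSCs). The members are a list of gene names (Plk1, Plk4, Aurka, Aurkb, Ttk, Bub1, Bub1b, Nek2, Melk and Cdk1) chosen by name for their role in mitosis, with earlier results of these data known, and all 10 were found among the 55450 genes of the deposited tables. HSCs from the bone marrow of wild type male C57BL/6JRj mice aged 12 to 19 weeks were imaged until their first division in culture, and the daughters were lifted out one by one for full-length Smart-seq2 sequencing. Of the cells analysed here, 85.7% belong to divisions with both sisters among them. In each division 1 sister carries the label "high", for more lysosomes than the other, and 1 carries "low". The 68 cells outside such high and low pairs comprise 39 high and 29 low cells. Whether a sister of theirs was sequenced without a sample label was not known. The cells come from 9 culture experiments. Sequencing run 5 holds 4 of these, experiments 60, 68, 72 and 73, with 20, 17, 11 and 19 divisions. Run 4 holds 5, experiments 69, 74, 75, 76 and 77, with 12, 27, 33, 38 and 26 divisions. How the lysosome label was set, how long after division a cell was picked and which mouse a cell came from were not stated in the sources used here. Genotype, strain, sex and tissue are shared by all cells.

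Totals on genes ran from 76735 to 2444858 counts per cell, with a median of 846198. The HSC label was checked with 8 marker genes. Their shares of cells with a count had a median of 94.9%, and 7 of 8 were above 50%. Of markers of other cells, Mpo and Ctsg (myeloid progenitors), Cd3e and Rag1 (lymphocytes) and C1qa (macrophages) were at 0 in every cell. Other genes of these lists were not: Lyz2 (myeloid) had a count in 99.6% of cells, Tfrc (erythroid) in 94.1%, Pecam1 (endothelium) in 93.7%, Pf4 (megakaryocytes) in 69.6% and Cd68 (macrophages) in 58.4%. Over experiments, the summed level of the 6 myeloid markers ran from 150.9 to 305.9 CPM (counts scaled to a cell's total on genes), and that of the 6 lymphoid markers from 0 to 0.537 CPM. The part of other cell types in the results below was not tested.

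Mitotic kinases are switched on in an ordered way as a cell passes from G2 through mitosis. Cdk1 with its cyclins drives entry, Polo and Aurora kinases build the spindle and guide cytokinesis, and a checkpoint holds cells in metaphase until every chromosome is attached. Most of these genes are silent in quiescent cells such as resting HSCs, their messenger RNA accumulates in G2 and mitosis, and after division transcript and protein are lost again. The cell cycle control of such promoters is known to run through the CHR element, which MuvB complexes such as DREAM bind, and through CCAAT boxes, which NF-Y binds.

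Since the members moved together, as described further on, their start sites were compared. Of the 10 members, 9 matched a promoter in the RefSeq table for GRCm38.p6, Aurkb being the other. Each promoter covers 250 bases before and 50 after the annotated start, and 3 sets of letters were searched on both strands. These were the CCAAT box, the usual CHR core TTTGAA, and the variant core TTCGAA. The variant reads the same on both strands, and no stretch can count as both cores. CCAAT was present in 7 of 9 member promoters and in 37.4% of all 32851 promoters. TTTGAA was present in 5 of 9 and in 17.9% of all, and TTCGAA in 2 of 9, Bub1b and Bub1, and in 1.56% of all. CCAAT together with either CHR core was present in 6 of 9 (Bub1b, Bub1, Aurka, Plk1, Ttk and Cdk1) and in 7.52% of all promoters. The windows below run from 100 bases before the start to 50 bases after it on the gene's strand, with any match on either strand in capitals. Plk1, Ttk, Cdk1 and Bub1 are shown as members with both kinds of letters in this window, and Plk4 as one in whose promoter none of the 3 was found.
Plk1: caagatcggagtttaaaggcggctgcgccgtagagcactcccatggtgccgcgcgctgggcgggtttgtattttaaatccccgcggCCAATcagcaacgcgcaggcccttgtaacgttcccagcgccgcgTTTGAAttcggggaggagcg
Ttk: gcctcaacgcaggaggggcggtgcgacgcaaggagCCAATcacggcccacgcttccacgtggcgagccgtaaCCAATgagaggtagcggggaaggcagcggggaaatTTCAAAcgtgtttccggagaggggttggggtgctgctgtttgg
Cdk1: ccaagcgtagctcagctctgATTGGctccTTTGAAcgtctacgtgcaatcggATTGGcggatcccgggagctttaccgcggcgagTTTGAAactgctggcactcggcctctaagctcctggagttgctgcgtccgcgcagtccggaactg
Bub1: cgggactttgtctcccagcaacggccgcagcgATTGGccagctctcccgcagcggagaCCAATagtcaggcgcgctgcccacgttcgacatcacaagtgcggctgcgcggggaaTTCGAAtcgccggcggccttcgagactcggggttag
Plk4: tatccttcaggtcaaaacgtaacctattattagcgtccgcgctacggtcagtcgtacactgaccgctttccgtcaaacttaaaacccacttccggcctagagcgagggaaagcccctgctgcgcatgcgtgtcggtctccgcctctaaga
The windows lie at chr7:122159335-122159484 (plus strand) for Plk1, chr9:83834589-83834738 (plus strand) for Ttk, chr10:69352863-69353012 (minus strand) for Cdk1, chr2:127831810-127831959 (minus strand) for Bub1 and chr3:40799851-40800000 (plus strand) for Plk4. In Plk1 a CCAAT box stood at -14 to -10 from the start and TTTGAA at 31 to 36, and Aurka had the same order, with CCAAT boxes starting at -51 and -19 and TTTGAA at 33 to 38. Cdk1 carried 2 TTTGAA cores, at -71 to -66 and at -15 to -10, with 3 CCAAT boxes on the opposite strand, the farthest of which lies outside the window shown. Nek2 had CCAAT boxes and neither core, and Melk, like Plk4, had none of the 3 motifs. A match of letters is a description of the sequence and no evidence of binding.

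A count was found in most cells for 9 of the 10 genes, Nek2 being the other, and levels were unequal. Cdk1, the kinase that starts mitosis with its cyclins, had a count in 89.5% of all cells (exact 95% binomial interval 86.3% to 92.1%). Bub1b, which encodes the checkpoint protein BubR1, had one in 71.3% (67.01% to 75.3%) and Plk4, which starts centriole duplication, in 69.4% (65.04% to 73.5%). The remaining members were Aurkb with 66.2%, Bub1 with 65.6%, Melk with 65.4%, Ttk with 62.7%, Aurka with 62.03%, Plk1 with 55.1% and Nek2 with 44.1%. The intervals cover counting error only. They treat cells as independent, although sisters were mostly alike and cells share cultures, so they are too narrow. PCR copies of a molecule could not be told apart in these reads. With each cell thinned to 300000 counts, leaving out 22 shallower cells, the shares ran from 39.2% for Nek2 to 88.5% for Cdk1. With a minimum of 5 counts they ran from 28.5% for Nek2 to 85.2% for Cdk1, and Plk1, at 47.9%, was no longer in most cells.

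Levels per length ordered the members differently from detection. Cdk1 averaged 42.1 ± 8.29 CPM per kb of exon (SD over 9 experiments), and Aurkb, the kinase of the chromosomal passenger complex, 41.2 ± 10.96. Plk1, the Polo kinase of spindle assembly and mitotic exit, stood at 36.6 ± 15.6. It held rank 3 by level per length and rank 9 by detection. This order depends on the length used, that of all annotated exons together, 2199 bases for Plk1 and 4934 for Cdk1. Without division by length Plk1 averaged 80.6 CPM, below Cdk1 (207.6), Aurkb (121.4) and Bub1b (111.1) and close to Bub1 (80.6). Bub1b had 25.98 ± 6.31 CPM per kb, Aurka, the kinase of centrosomes and spindle poles, 23.6 ± 8.26, Melk, an AMPK-related kinase of dividing cells, 21.9 ± 6.19, and Bub1, a kinetochore kinase of the checkpoint, 18.5 ± 4.30. Ttk, the checkpoint kinase also called Mps1, followed with 10.1 ± 2.04, then Plk4 with 2.94 ± 1.06 and Nek2, which separates centrosomes, with 1.14 ± 0.42. In each pair of neighbours from Cdk1 down to Bub1 the mean difference within experiments was smaller than its SD. Cdk1 exceeded Aurkb in 4 of 9 experiments, by 0.845 ± 4.63 CPM per kb, and Plk1 exceeded Bub1b in 8 of 9, by 10.6 ± 10.95. The lower steps were larger than their spread, at 8.45 ± 3.23 for Bub1 over Ttk, 7.12 ± 1.99 for Ttk over Plk4 and 1.80 ± 0.95 for Plk4 over Nek2, each in 9 of 9 experiments.

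**Figure D1:**
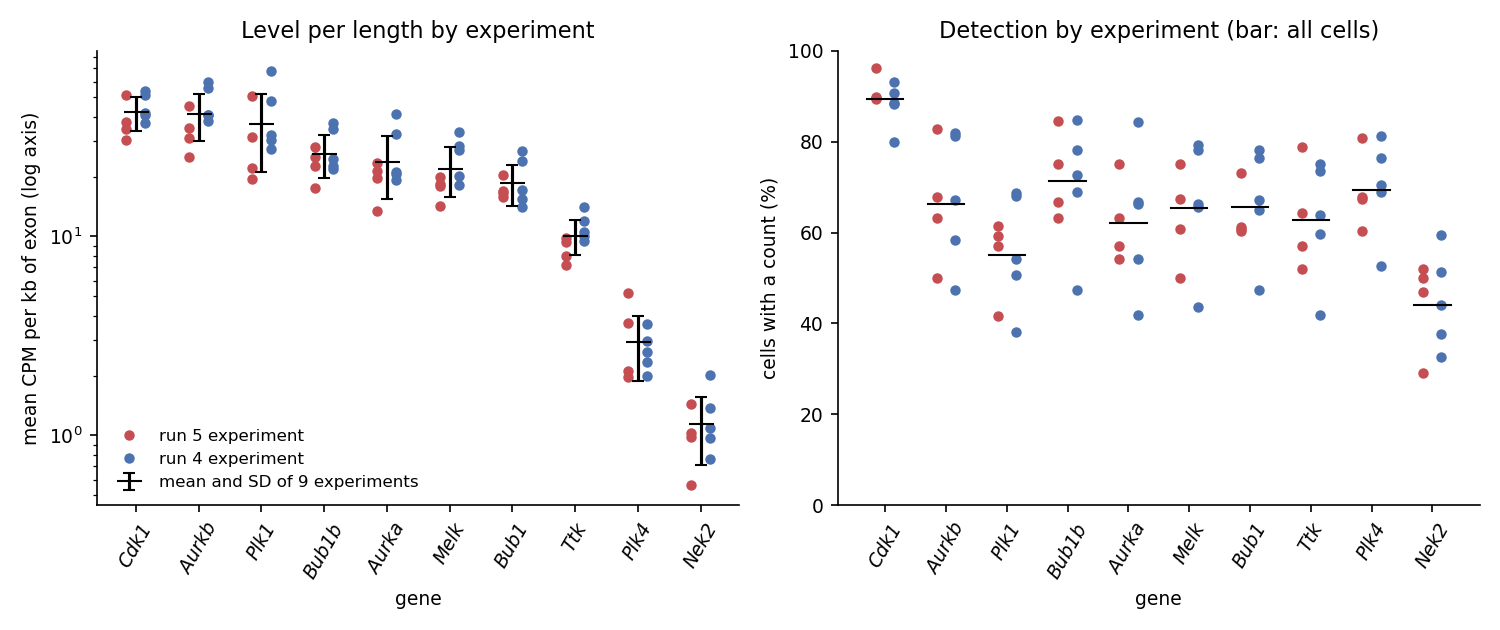
Left, mean level of each mitotic kinase gene per experiment in CPM per kb of exon (log axis), with the mean and SD of 9 experiments; right, the percentage of cells with a count in each experiment, with a bar for all cells. Experiments of run 5 (red) stand left of those of run 4 (blue). Cdk1, Aurkb and Plk1 have the highest levels per length, Ttk, Plk4 and Nek2 the lowest, and Plk1 is detected in fewer cells than any member but Nek2.

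Single cells spread far more than experiment means. Plk1 had a lowest level of 0, a median of 3.91 and a highest of 1696 CPM over all cells, and a median of 106.7 CPM among the cells with a count. Aurkb had 0, 68.1 and 601.0 CPM, and Cdk1 had 0, 173.2 and 1044 CPM. For Nek2 the median was 0 and the highest value 50.8 CPM. The lower quartile of every member other than Cdk1 was 0, while that of Cdk1 was 30.8 CPM. Across cells, the number of counts in a library and the level of a member had Spearman correlations from 0.0468 for Plk1 to 0.162 for Nek2 (over all cells, which share plates and runs).

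Cells gathered at high numbers of members detected and, less so, at low numbers from 1 to 3. A cell could have a count for any number of them from 0 to 10. All 10 were present in 36.5% of cells and 9 in a further 56 cells. At the low end 20 cells had none, 44 had 1, 42 had 2 and 37 had 3. The cells with 9 or 10 made up 48.3% and those with 2 or fewer 22.4%, and each number from 4 to 8 held between 14 and 26 cells. The number of members had a Spearman correlation of 0.156 with the total count over all cells. After thinning to 300000 counts the shares were 32.5% with all 10, against 37.2% unthinned in the same cells, and 27.7% with 2 or fewer.

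**Figure D2:**
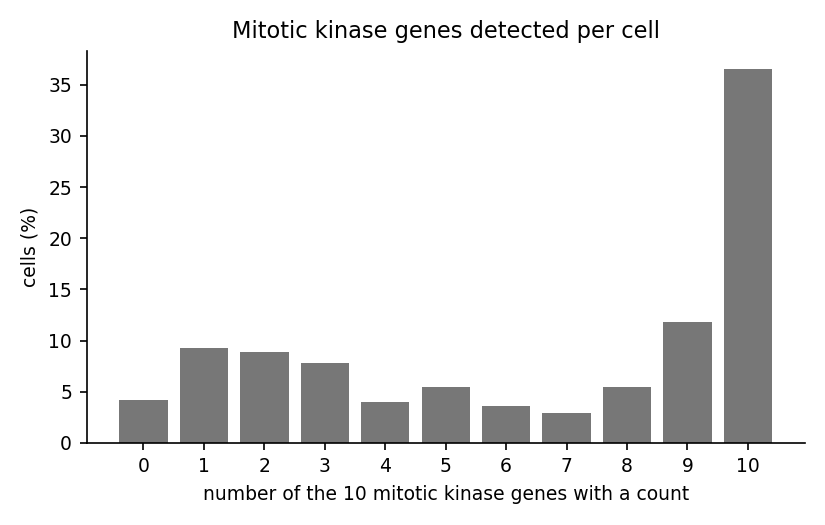
Percentage of all cells (vertical axis) by how many of the 10 mitotic kinase genes had a count in that cell (horizontal axis). Cells gather at 9 and 10, with 36.5% of them at 10, and less so at 1 to 3. There are 20 cells at 0 and between 14 and 26 at each number from 4 to 8.

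Which members were present differed between cells with few and with many of them. Of the 44 cells with a single member, 24 had Cdk1 and 8 had Aurka, and none had Nek2 or Melk. Of the 42 cells with 2 members, 35 had Cdk1, 14 Plk4, 12 Bub1b and 10 Aurka. At the other end, the member missing from the 56 cells with 9 was Nek2 in 35, Aurka in 10 and Plk1 in 8. Nek2 was the most nested of the genes, and also the one with the lowest level and detection. Of the cells with a Nek2 count 99.5% had Cdk1, 98.6% Melk, 98.1% Bub1 and 97.1% each of Aurkb, Ttk, Plk4 and Bub1b. The shares with Plk1 and Aurka were lower, at 90.4% and 89.95%. Of Plk1-positive cells 95.4% had Aurkb and 95.02% Bub1b, whereas of Cdk1-positive cells 60.4% had Plk1. Of Aurka-positive cells, 44 lacked Aurkb and 68 lacked Plk1.

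Sisters were mostly alike in which members they carried. For Plk1, both sisters had a count in 98 divisions and neither had one in 71, and the remaining 34 divisions were split, 12 with the high and 22 with the low daughter positive. Unrelated cells of the same experiment would give 94.8 split divisions at these shares. Ttk was split in 29 divisions against 89.5 for unrelated cells, Melk in 33 against 83.96, Bub1 in 36 against 86.2 and Aurkb in 40 against 84.1. Aurka was split most often of the 10, in 53 divisions (30 with the high and 23 with the low daughter positive) against 93.7. Cdk1, present in nearly all cells, was split in 26 divisions against 38.7. In 16 of the 34 split Plk1 divisions the positive sister had fewer than 5 counts, and with a minimum of 5 counts 28 divisions were split.

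The number of members was often close between sisters as well. No value for unrelated cells was computed here, and 48.3% of all cells had 9 or 10 members. Sisters had the same number in 85 divisions (41.9%) and numbers within 1 of each other in 71.9%. Both had all 10 in 59 of the 85 divisions with the same number. Over all divisions, both had 2 or fewer in 35. They were 5 or more apart in 14 divisions, with more in the high daughter in 7 and more in the low daughter in 7, and the largest gap was 9. In 2 divisions 1 sister had all 10 members and the other 2 or fewer. Over all divisions the high daughter had more members in 59 and the low daughter also in 59.

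**Figure D3:**
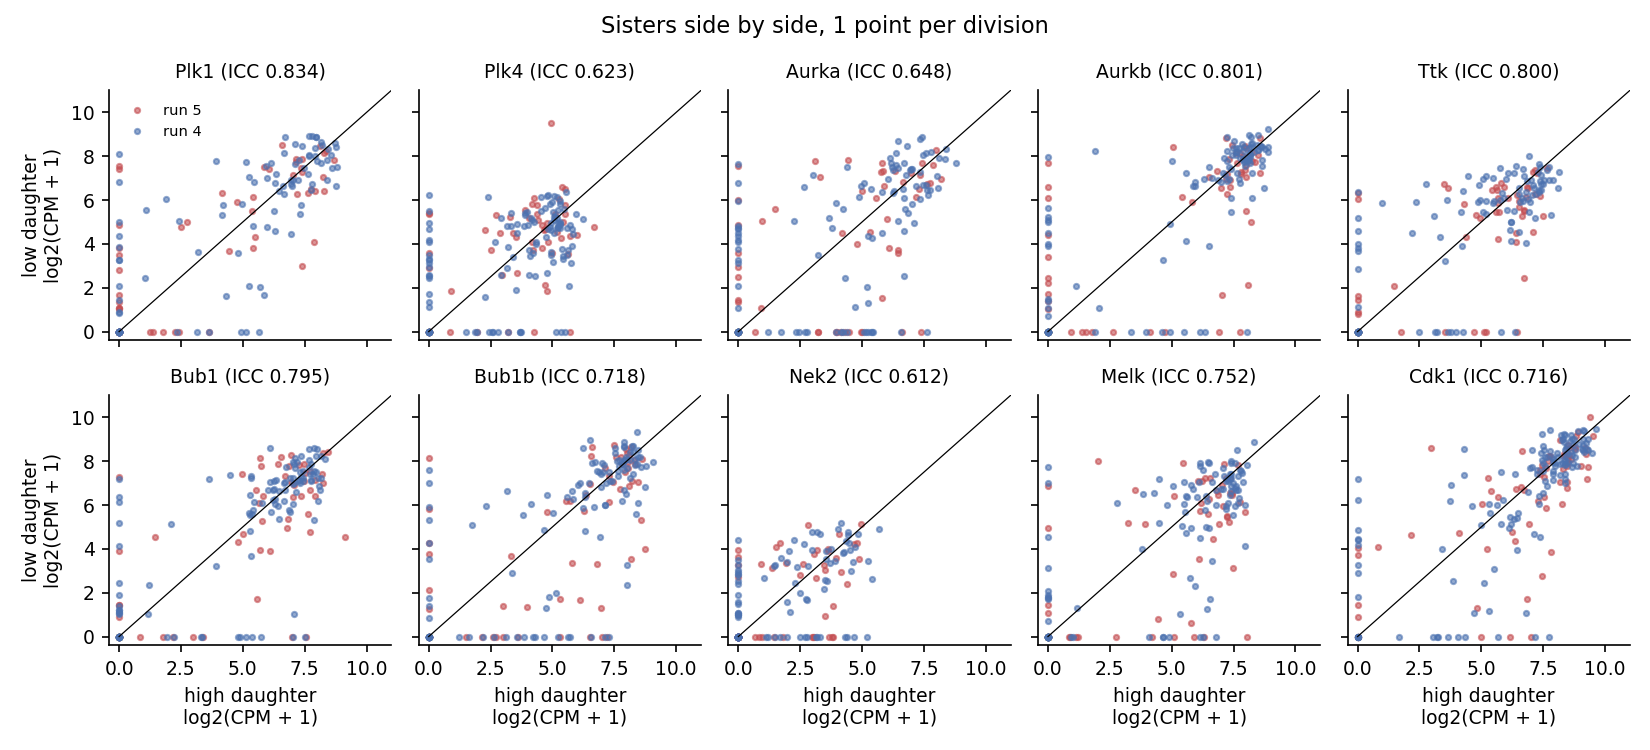
Each point is 1 division, with the high daughter's level on the horizontal and the low daughter's on the vertical axis, both as log2(CPM + 1), 1 panel for each mitotic kinase gene; run 5 is red and run 4 blue, and the line marks equal levels. Points gather near the origin, except for Cdk1, where 9 divisions lack a count in both sisters. A further cloud lies toward the upper right, at lower levels for Nek2 and Plk4, and split divisions lie along the axes. ICC is the intraclass correlation, from 0.612 for Nek2 to 0.834 for Plk1.

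How much of the spread lay between divisions was measured by the intraclass correlation of log2(CPM + 1) after centring on experiment and plate, which is near 1 where sisters differ little compared with divisions. It was tested with an F test over divisions, Benjamini-Hochberg adjusted over all 11699 genes with a count in at least 20% of paired cells. All 10 members passed the 0.05 threshold, against 26.4% of all genes tested, and the median was 0.735 for the members and 0.0858 for all genes. The p-values rest on divisions, which share cultures. Plk1 ranked first of all genes, with 0.834 (95% interval 0.787 to 0.872, adjusted p = 4.17e-50 by the F test) and SDs of 3.11 between and 1.39 within divisions on the log2 scale. Aurkb (0.801), Ttk (0.800) and Bub1 (0.795) held ranks 5, 6 and 8, Melk had 0.752, Bub1b 0.718 and Cdk1 0.716. Aurka, with 0.648, Plk4, with 0.623, and Nek2, with 0.612 (0.518 to 0.693), stood lowest, at ranks 98 to 140.

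Values within single experiments rest on 11 to 38 divisions each and were not tested. Within single experiments Plk1 had a lowest value of 0.597 in experiment 72 and a highest of 0.959 in experiment 68, and Ttk stayed between 0.685 and 0.852. Nek2 varied most in absolute terms, from 0.316 in experiment 72 to 0.908 in experiment 77, with Aurka close to it, from 0.327 in experiment 68 to 0.891 in experiment 69. All 90 values, 10 members in 9 experiments, were above 0. The median gap between sisters in Plk1 was 0.493 on the log2(CPM + 1) scale, against 3.39 between unrelated cells of the same experiment, a measure that counts a pair of zeros as no gap. For Cdk1, with few zeros, the gaps were 0.708 between sisters and 1.95 between unrelated cells, and for Aurka, the widest, 1.15 and 3.22. The gap was smaller in sisters in 9 of 9 experiments for 9 members and in 8 of 9 for Nek2.

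The values were small once scores of other cell cycle genes were regressed out, a step that removes much of what the members share. The score of non-member mitosis genes includes Ccna2, Nuf2 and Cdca8. Their division means had a Pearson's r of 0.968, 0.958 and 0.954 with the members' mean. A fall was therefore built into this setting, and the cause of the sister resemblance was not tested. When the mean of replication genes and the mean of non-member mitosis genes were regressed out of each gene, 2 of 10 members still passed, Ttk with 0.293 (adjusted p = 0.000379 by the F test) and Melk with 0.175 (adjusted p = 0.0467), against 14.6% of all genes tested. Bub1 had 0.167 and Plk1 0.149 under this correction, short of the threshold. Aurka had 0.0407, Bub1b 0.0125 and Cdk1 0.000134, while Aurkb with -0.0301 and Plk4 with -0.0414 were below 0. Regressing out the total count and the number of detected genes instead left all 10 past the threshold, between 0.484 for Plk4 and 0.726 for Plk1.

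**Figure D4:**
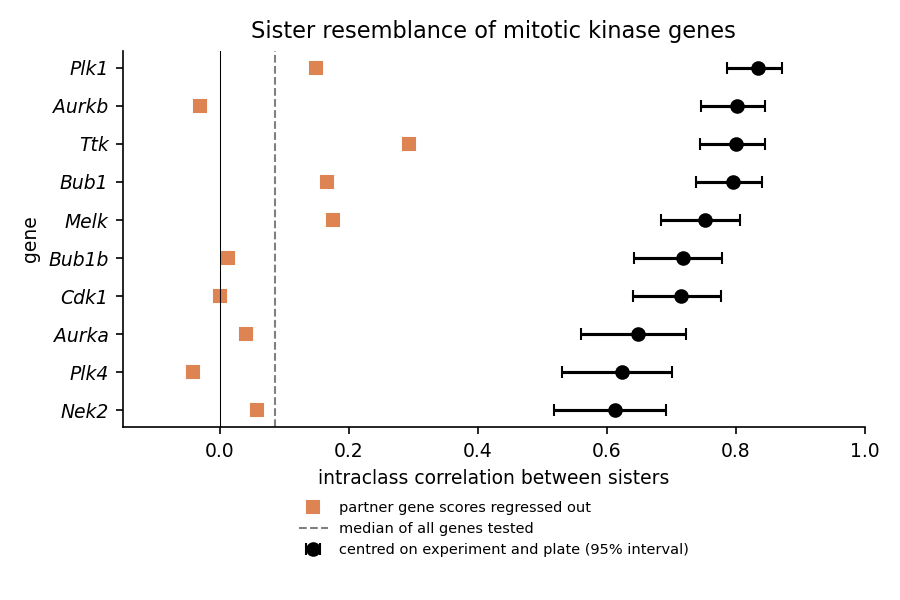
Intraclass correlation between sisters (horizontal axis) for each mitotic kinase gene, in falling order. Black points with 95% intervals are centred on experiment and plate, orange squares are the values with partner gene scores regressed out, and the dashed line is the median of all 11699 genes tested, 0.0858. All black points lie above 0.6, and with the scores regressed out the values run from -0.0414 for Plk4 to 0.293 for Ttk.

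Lists of partners of these kinases were set beside the 26.4% of all genes that passed, with no test between lists. Of cyclins and Cdk1 regulators, 11 of 11 tested genes passed the threshold for sister resemblance, led by the cyclin gene Ccna2 (0.828), and of partners of Aurora and Polo kinases 8 of 8, led by Tpx2 (0.793), the activator of Aurora A, and Birc5 (0.778), a passenger subunit bound by Aurora B. In the checkpoint and kinetochore list 10 of 11 passed, with Nuf2 highest (0.829) and Mis12 (0.138, adjusted p = 0.0822) the one that missed. The anaphase-promoting complex and exit list was mixed, with 5 of 10 past the threshold. There the separase gene Espl1 had 0.755 and the ubiquitin-conjugating enzyme gene Ube2c 0.752, while Pttg1, the gene of the separase inhibitor securin, had -0.136. Of the centriole partners of Plk4, 5 of 6 passed, from Stil with 0.635 to Cep152 with 0.349 among those named, and Cep63 with 0.128 missed. Among regulators of transcription 10 of 14 passed, with Foxm1 at 0.709 and Mybl2 at 0.604, and the MuvB subunit gene Lin37 at 0.0371.

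Of other kinases of division, 5 of 11 tested passed the threshold, with the cytokinesis kinase gene Cit at 0.744 and the mitotic kinase gene Pbk at 0.743, and Nek9 lowest at 0.0302. All 12 tested replication genes passed, from 0.411 for Cdc6 to 0.696 for Rrm2. List medians were 0.684 for Aurora and Polo partners, 0.658 for cyclins, 0.649 for checkpoint genes, 0.572 for replication, 0.357 for regulators of transcription, 0.318 for centriole partners, 0.274 for the exit list and 0.142 for other kinases, beside 0.735 for the members.

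The members co-varied over divisions. Between the division means of any pair of them, Pearson's r ran from 0.682 (Nek2 and Cdk1) to 0.946 (Aurkb and Melk) over all divisions, with a median of 0.840 over the 45 pairs and a median Spearman's rho of 0.836. The median r was 0.824 within run 5 and 0.851 within run 4. These are descriptions, since sisters, plates and library depth are shared among the points. Aurkb was the member closest to the others, with a median r of 0.891, and was the closest partner of Plk4, Ttk, Bub1, Melk, Cdk1 and Plk1. Nek2 was the farthest, with a median of 0.763. Differences between sisters were much less aligned, with r from 0.104 to 0.591 and a median of 0.298, against the median of 0.840 between division means.

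Among 11689 genes outside the list, those most like the mean of the members over all divisions were Ccna2 (Pearson's r = 0.968), Ckap2l (0.967), Nuf2 (0.958), Kif11 (0.956), Cdca8 (0.954), Cep55 (0.953), Kif4 (0.952), Nusap1 (0.947), Spag5 (0.945) and Shcbp1 (0.943). The value for Ccna2 was 0.968 in run 5 and 0.968 in run 4. Foxm1, which encodes a factor known to drive G2 and M genes, ranked 25th with 0.929. Of other kinases, Pbk had 0.927 and Cit 0.925, whereas Plk3, a Polo relative induced by stress, had 0.0462 and the relatives of Nek2, Nek7 and Nek9, had -0.0469 and -0.0621. Nek6 had -0.315, the lowest of all partner genes listed.

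Daughters with more lysosomes did not differ detectably in any of the 10 genes from their sisters with fewer. For each experiment the counts of high and of low daughters were summed, and the sums were compared by edgeR's quasi-likelihood F test with the experiment as block. By this test 0 of 10 members passed after Benjamini-Hochberg adjustment (0% of all 15854 genes tested), and 0 of 10 had an unadjusted p under 0.05, against 4.15% of all genes. DESeq2 also called 0 members, and limma on differences between sisters called 0, with Bub1b and Melk, 2 of 10, at an unadjusted p under 0.05, against 5.78% of all genes in that fit. The members' median log2 difference was 0.03, that of all genes -0.00076, and 5 of 10 members were above 0.

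For the Polo and Aurora kinase genes every 95% interval of the difference between high and low daughters included 0. Plk1 had a lowest, median and highest level of 40.1, 75.4 and 124.9 CPM in high daughters over the 9 experiments, against 43.6, 77.7 and 161.6 CPM in low daughters. The ranges overlapped from 43.6 to 124.9 CPM, and the high daughters were above the low ones in 3 of 9 experiments. The log2 difference of Plk1 was -0.12 ± 0.12 (SE, 95% interval -0.38 to 0.15, edgeR adjusted p = 0.999). Plk4 stood at -0.12 ± 0.17, Aurka at -0.12 ± 0.16 and Aurkb at -0.014 ± 0.12.

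The same was true of the other 6 members. Cdk1 had 164.6, 214.1 and 315.5 CPM in high daughters and 136.4, 206.8 and 292.3 CPM in low daughters, and its log2 difference was 0.09 ± 0.08 (95% interval -0.07 to 0.26), the narrowest interval of the 10. Melk had 44.3, 73.99 and 92.3 CPM in high and 34.5, 69.5 and 97.8 CPM in low daughters, with a log2 difference of 0.14 ± 0.16 that rested on experiment 68, where it was 1.40. Without experiment 68 it was -0.0051. The checkpoint genes Ttk, Bub1 and Bub1b stood at 0.13 ± 0.11, -0.0012 ± 0.15 and 0.06 ± 0.11, and Nek2 at 0.11 ± 0.23 with the widest interval, -0.39 to 0.61. Limma on differences between sisters weighs every division alike on the log2(CPM + 1) scale. It gave larger values for Bub1b (0.44 ± 0.17, SE), Melk (0.35 ± 0.15), Cdk1 (0.25 ± 0.15) and Bub1 (0.13 ± 0.15). Their limma adjusted p-values were 0.851, 0.851, 0.873 and 0.936. For Ttk and Nek2 the limma values were smaller, at 0.06 and 0.03. For 10 of 10 members the edgeR interval lay within a 2-fold difference. In the 68 cells outside the high and low pairs, Plk1 had a count in 46.2% of 39 high and 44.8% of 29 low cells. Cdk1 had one in 92.3% and 89.7%.

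The direction within single experiments varied, and whether members moved together there was not tested. Since members co-varied over divisions, the counts of members below are not independent. Shares of all genes were not computed by experiment. In experiment 77 all 10 were higher in high daughters, with a median log2 difference of 0.56, and in experiment 68 all but Nek2 were, with a median of 0.73. In experiment 69 all but Plk4 were lower in high daughters, with a median of -0.32, and 8 of 10 were lower in experiments 72 and 74. Of the others, 7 of 10 were lower in experiments 60, 73 and 75, and 7 of 10 were higher in experiment 76, with a median of 0.071. The difference between runs in the effect of the label was also tested, and 0 members passed (edgeR, label-by-run term, adjusted p = 1 for each). It was largest for Plk4, at -0.54 ± 0.32 (run 5 minus run 4).

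**Figure D5:**
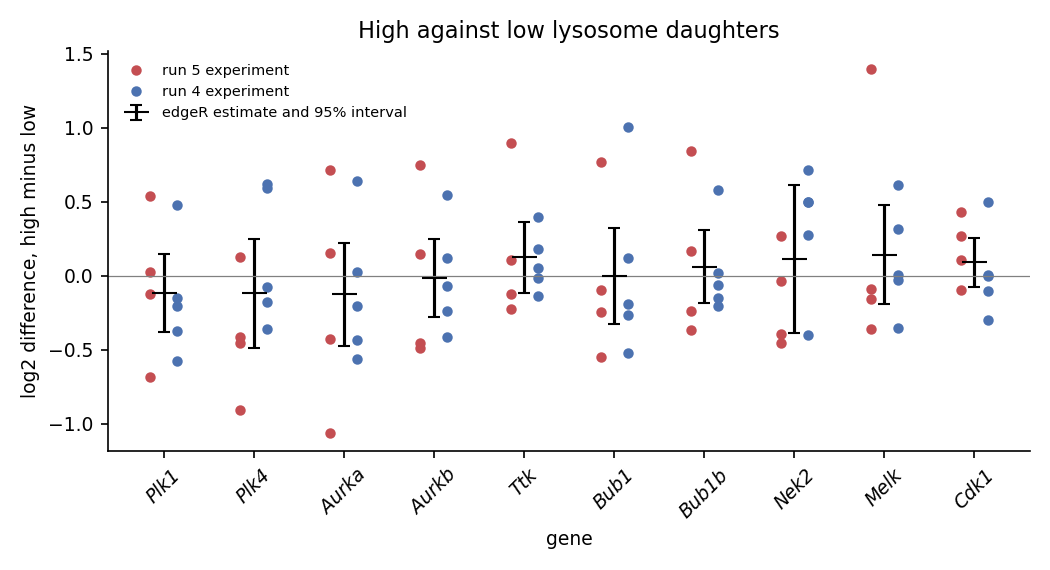
Log2 difference between high and low daughters (vertical axis, above 0 where high daughters are higher) for each mitotic kinase gene. Points are the 9 experiments, run 5 in red and run 4 in blue, and black bars are the edgeR estimate with its 95% interval. Every interval includes 0, and points of single experiments lie on both sides for each gene.

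Experiments differed in how many of their cells carried the members. In experiment 77 the share of cells with 2 or fewer members was 50.9%, and 53.7% after thinning, while in experiment 73 it was 1.92%, and 10.4% after thinning. All 10 members were present in 56.3% of cells of experiment 69, 27.1% of experiment 60 and 29.1% of experiment 77. Experiment 77 had the lowest detection for 9 of 10 members, Nek2 being the other, a count over genes that co-vary. Its Plk1 share was 38.2%, against 68.8% in experiment 69, and its Cdk1 share 80%, against 96.2% in experiment 73. Experiment 77 also had the lowest median total of the 9, at 539043 counts, and the part of depth beyond the thinned values was not tested.

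Mean levels ordered the experiments otherwise. Experiment 60 had the lowest mean for 8 of 10 members and experiment 69 the highest for 6, again counts over genes that co-vary. Plk1 averaged 42.98 CPM in experiment 60 and 148.4 CPM in experiment 69, with a median of 69.7 over experiments, and Cdk1 150.1 and 263.98 CPM with a median of 199.9. In experiment 77 the mean of Plk1 was 70.9 CPM, near that median although few cells had a count. The SD over experiments was from 19.7% of the mean for Cdk1 to 42.5% for Plk1.

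Set against the spread between divisions, no difference between experiments was detected in the members. With counts summed per division and edgeR's F test of all experiment terms, 0 of 10 members passed after Benjamini-Hochberg adjustment, against 25.8% of 10387 genes tested, and 0 of 10 had an unadjusted p under 0.05, against 35.8% of all genes. The smallest adjusted p was 0.484, for Plk4. With limma on division means 0 members passed, the smallest adjusted p was 0.0963 and 4 of 10 had an unadjusted p under 0.05, against 43.5% of all genes in that fit. Experiment, plate and run cannot be told apart in this test. Some genes of the partner lists passed, of which at most 3 a list are named, with no test between lists. Of the exit list these were Cdc14a (edgeR adjusted p = 0.00471), Anapc11 (0.0110) and Pttg1 (0.0444). From the other lists they were Mad1l1 (0.0138), E2f3 (0.000436), E2f4 (0.0197), Rbl2 (0.0261), Nek9 (0.00493), Cdk2 (0.00914), Mcm6 (0.0233), Mcm3 (0.0386) and Mcm2 (0.0435). Past the threshold by list were 1 of 11 checkpoint genes, 4 of 10 exit genes and 3 of 14 regulators of transcription. So were 2 of 11 other kinases and 3 of 12 replication genes. Only the exit list had a share above the 25.8% of all genes. Of cyclins and Cdk1 regulators 0 of 11 passed, of Aurora and Polo partners 0 of 8 and of centriole partners 0 of 6.

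No difference between the sequencing runs was detected either. With counts of both daughters summed per experiment, Plk1 had 41.6, 83.2, 62.3 and 113.1 CPM in the 4 experiments of run 5 and 145.2, 52.01, 107.9, 71.02 and 64.03 CPM in the 5 of run 4. Plk4 had 12.4, 15.9, 28.1 and 31.5 CPM in run 5 and 20.8, 17.4, 26.7, 17.4 and 13.5 CPM in run 4. In both genes the runs overlapped. The log2 difference, run 5 minus run 4, was -0.20 ± 0.32 (SE) for Plk1 and 0.23 ± 0.29 for Plk4, the largest in each direction. By edgeR's quasi-likelihood F test 0 of 10 members passed (0% of all 14788 genes), and 0 had an unadjusted p under 0.05, against 9.14% of all genes. DESeq2 called 0 members. Each member's 95% interval lay within a 2-fold difference, the widest being that of Nek2, from -0.93 to 0.96, and run and culture cannot be told apart.

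Plk1, Nek2 and Melk each overlap an annotated gene on the opposite strand, and whether the counting used strand was not stated in the sources used here. The overlapping genes, Gm44985, Gm38037 and Gm12677, had 0 counts over all cells, against 31553 counts for Plk1, 2154 for Nek2 and 26822 for Melk.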

How the data were processed

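Single-cell Smart-seq2 libraries of 474 HSC daughters were analysed, 406 of them in 203 divisions with both sisters. The deposited values are raw read counts per gene, made by the authors with featureCounts of Subread 1.5.0 and SAMtools, per the submitters' processing notes. An aligner and a genome build were not stated in the sources used here. Symbols, positions and exon lengths were taken from GENCODE mouse release 21 (GRCm38), in which all 55450 gene identifiers were found. Rows of 92 spike-ins stayed out of totals. Another 171 columns of counts matched no sample label and were left out. Other deposited values are the authors' labels for each cell (movie, experiment, position, colony and lysosome inheritance), which joined the sisters.

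CPM was computed on gene totals, and logs as log2(CPM + 1). Depth was 76735 to 2444858 counts per cell, and a count of 0 in a shallow cell is less firm than in a deep one. Sister resemblance was a one-way intraclass correlation with an F test over divisions. For labels and runs, counts were summed per experiment, where the experiment is the replicate, and for experiments they were summed per division. These were tested with edgeR 4.0.16 (TMM, filterByExpr, quasi-likelihood F test) in R 4.3.3, Benjamini-Hochberg adjusted over all genes tested. The test over divisions was limited to genes with a count in at least 50% of divisions, a filter added because simulated data gave too many false calls for sparser genes. limma 3.58.1 and DESeq2 1.42.0 served as alternatives, and Python 3.11.15 with scipy 1.17.1 for the rest. Scripts were tested on simulated data. The experiment block pairs high and low daughters of the same cultures, and sisters come from 1 mother cell.

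The members and gene lists were chosen with earlier results of these data known. Named besides the members are the 10 genes most like their mean over divisions, up to 3 genes with the highest and 1 with the lowest intraclass correlation of each list, and in the other comparisons up to 3 genes past the threshold of each list. Plk3, Nek6, Nek7 and the ranks of Foxm1, Pbk and Cit among like genes were chosen after their values were seen. No more than 1 group is given in the sample labels, so high and low come from the authors' metadata.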

Additional observations from a re-analysis of the deposited data

Results flagged for a closer look

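Outliers were sought in 62 groups of experiment values, where chance gives a flag in about 1 of 20 groups, and 2 were flagged. A group held either all 9 experiments or, for levels by run, only the experiments of 1 run. The intraclass correlation of Melk in experiment 73 was 0.487, while the other 8 experiments lay between 0.698 and 0.845. The share of cells with a Cdk1 count in experiment 77 was 80%, while the other 8 experiments lay between 88.3% and 96.2%.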

How the results depend on the processing

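All 10 members passed the threshold for sister resemblance under each alternative run except the regression of partner scores, which left 2 members and 1708 of all genes and turned Plk4 (-0.0414) and Aurkb (-0.0301) below 0. Without 1 experiment in turn, 10 of 10 members and 2647 to 3154 of all genes passed, and run 5 alone gave 1201 of all genes. No member was called for lysosome label, run or experiment under any alternative run. DESeq2 called 3 genes for the label and 36 for the run, and without 1 experiment 0 to 1 gene passed for the run, the 1 without experiment 68. Runs 4 and 5 alone gave 773 and 1187 genes that differed between experiments. With no replicate block, 0 genes passed for the label, so the block, which pairs labels by experiment, changed no call. Signs of uncalled differences were not stable, and the cause was not tested. For the label, Bub1 was 0.00043 with RLE factors, 0.00052 with DESeq2, 0.13 with limma and 0.031 in run 4 alone, Aurka 0.080 and Aurkb 0.011 with limma, Plk4 0.12 in run 4 alone and Nek2 -0.16 in run 5 alone. Leaving out 1 experiment gave -0.12 to 0.069 for Bub1, -0.11 to 0.047 for Aurkb, -0.032 to 0.12 for Bub1b and -0.0051 to 0.21 for Melk. For the run, leaving out 1 experiment gave -0.22 to 0.087 for Aurka, -0.27 to 0.020 for Melk, -0.46 to 0.057 for Plk1, -0.069 to 0.23 for Bub1b, -0.26 to 0.35 for Nek2 and -0.19 to 0.15 for Cdk1, and with no filter beyond 1 count Nek2 was -0.013 and Cdk1 -0.016. With 22 shallower cells left out, the members had a median detection of 61.8% of cells after thinning to 300000 counts and 65.5% in the same cells before it.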

Other observations

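The genes that ran most against the members over all divisions were Tcp11l2 (Pearson's r with the members' mean -0.631), Pdzk1ip1 (-0.597), Pnpla7 (-0.572), the histone H2B gene Hist1h2bc (-0.551) and Lrrfip1 (-0.542). For Tcp11l2 the value was -0.682 in run 5 and -0.609 in run 4, and for Lrrfip1 -0.664 in run 5 and -0.480 in run 4. Pdzk1ip1, Pnpla7 and Lrrfip1 had a count in 98.8%, 99.01% and 100% of paired cells, whereas Tcp11l2 had one in 39.4%. These are descriptions over divisions that share plates and depth.

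Of the factors that act on promoters of G2 and M genes, division means of Foxm1 had an r of 0.929 with the mean of the members, E2f8 0.798, Mybl2 0.786 and E2f7 0.687. The MuvB subunit genes Lin9, Lin54, Lin52 and Lin37 had 0.667, 0.601, 0.338 and 0.172, and the pocket protein genes Rbl1 and Rbl2 0.508 and -0.0056. E2f1, E2f2, E2f3 and E2f4 had 0.183, 0.471, 0.0036 and 0.289. Of the 10 genes most like the members, 8 matched a RefSeq promoter, and 6 of these held TTTGAA and 5 held CCAAT.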
